A study of Mus musculus with 4 samples.

Results

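The simple epithelial keratins are 6 genes here, Krt7, Krt8, Krt18, Krt19, Krt20 and Krt23, taken by gene symbol. They are read by 8 of the 45101 probe sets on the array and are 6 of the 18193 genes that a probe set names alone. Krt8 has 3 probe sets and each of the others has 1. They were compared between the cortical collecting duct (1 array, numbered 3) and the anlage of the loop of Henle (3 arrays, numbered 1 to 3) of the fetal mouse kidney. Both groups were wild-type CD-1 mice, an outbred stock, of unrecorded sex at stage E15.5 (Theiler stage 23). Cells were cut from frozen, stained sections by laser, and each array held RNA pooled from about 50 sections of 5 kidneys and amplified over 2 rounds. How each structure was recognised, and whether pools shared kidneys or litters, is not in the labels, so the spread between arrays may be technical. The p-values measure only the spread between the 3 anlage arrays.

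Keratins are the intermediate filament proteins of epithelial cells. Each filament is built from pairs that join an acidic (type I) chain to a basic (type II) chain, and an unpaired chain is usually broken down. Krt8 with Krt18 is the first pair made in the embryo and the basic pair of single-layered epithelia, while Krt7 and Krt19 are added in ducts. In the kidney the collecting duct, which grows from the ureteric bud, is known as a keratin-rich segment, and the loop of Henle arises from the separate nephron lineage. Of the genes described here Krt7 and Krt8 are type II, and Krt18, Krt19, Krt20 and Krt23 are type I.

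In the RefSeq annotation Krt7, Krt8 and Krt18 lie on chromosome 15 and Krt19, Krt20 and Krt23 on chromosome 11. Krt18 is the type I gene that stands apart from its class, next to Krt8 with 0 protein-coding genes between them, and Krt20 is likewise next to Krt23. Promoter sequences were found for 5 of the 6 genes (not Krt19). Those of the 3 genes with the widest gap between the structures are shown, from 250 bases before to 50 bases after the annotated start, on the gene's strand, from RefSeq on build GRCm38.p6. Capitals mark matches to any of 7 motifs on either strand. Krt8 is chr15:102004293-102004592 (minus strand), Krt18 is chr15:102027966-102028265 (plus strand) and Krt7 is chr15:101412153-101412452 (plus strand).
Krt8: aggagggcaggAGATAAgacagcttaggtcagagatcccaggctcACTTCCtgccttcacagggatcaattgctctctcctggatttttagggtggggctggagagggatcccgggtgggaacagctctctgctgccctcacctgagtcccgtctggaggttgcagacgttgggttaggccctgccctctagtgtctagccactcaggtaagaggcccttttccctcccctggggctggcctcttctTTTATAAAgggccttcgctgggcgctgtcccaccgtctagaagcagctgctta
Krt18: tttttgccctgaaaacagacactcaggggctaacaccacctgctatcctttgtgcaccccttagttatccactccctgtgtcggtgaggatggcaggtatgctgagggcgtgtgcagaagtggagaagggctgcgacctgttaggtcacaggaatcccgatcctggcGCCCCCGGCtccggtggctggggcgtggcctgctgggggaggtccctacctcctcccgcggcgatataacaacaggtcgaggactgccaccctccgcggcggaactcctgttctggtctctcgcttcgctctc
Krt7: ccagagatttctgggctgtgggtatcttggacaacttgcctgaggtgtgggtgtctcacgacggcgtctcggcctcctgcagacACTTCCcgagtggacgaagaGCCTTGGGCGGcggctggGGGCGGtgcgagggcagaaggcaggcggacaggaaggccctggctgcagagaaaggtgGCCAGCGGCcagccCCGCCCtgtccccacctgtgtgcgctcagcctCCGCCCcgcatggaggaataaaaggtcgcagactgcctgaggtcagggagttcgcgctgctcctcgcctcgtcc

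The motifs searched were the TATA box (TATAAA), the Sp1 factor's box (GGGCGG), the AP-1 site (TGANTCA), the GATA factor site (AGATAA), the ETS factor core (GGAAGT), the AP-2 site (GCCNNNGGC) and the Grainyhead-like site (AACCNGTT). The Krt8 promoter held the TATA box letters on both strands, overlapping across its annotated start, the GATA site, and the ETS core on the opposite strand. Across the 32851 promoters of the table these motifs were present in 13.6%, 11.2% and 23.8%. The Krt18 promoter held the AP-2 site, present in 16.6% of promoters, and 0 of the other 6 motifs. The Krt7 promoter held 4 matches to the Sp1 box (35.7% of promoters), 1 to the ETS core and 2 to the AP-2 site, the first of these overlapping an Sp1 match. No motif was shared by all 3 promoters. Of the 5 keratin promoters 0 held the AP-1 site (7.81% of promoters) or the Grainyhead-like site (2.09%). A match is only a description of the letters.

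The arrays differed in RNA quality and signal within the anlage group too. The 3' to 5' signal ratio of the Gapdh control, which grows as transcripts shorten, stood at 12.0 for the collecting duct, and at 10.3, 54.1 and 26.0 for anlage arrays 1, 2 and 3. The median signal of the collecting duct array was 402.7 units, against 526.5, 206.9 and 344.2 units in the anlage arrays. The labelled structures were described by lists of their markers. These were chosen with earlier results of these data known, so the sums are not an independent check. The normalized signal of 12 collecting duct markers summed to 110438 in the collecting duct array and to 10974, 19800 and 8016 in the anlage arrays. That of 10 loop of Henle markers summed to 2876 in the collecting duct array and to 92787, 24631 and 73281 in the anlage arrays. The sum over 8 smooth muscle markers was 8492 for the collecting duct, against 12438, 13876 and 118851 for anlage arrays 1, 2 and 3, so anlage array 3 held far more of them.

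The pair Krt8 and Krt18, together with Krt7, stood higher in the collecting duct array than in every anlage array, while Krt19, Krt20 and Krt23 overlapped or nearly met the anlage range. On the log2 scale the differences were 2.25 ± 0.48 for Krt18, 1.84 ± 0.42 for Krt8 and 1.63 ± 0.57 for Krt7 (± SE). These correspond to 4.76-fold, 3.57-fold and 3.10-fold. None of the 5 members tested passed over all 12642 genes (limma, adjusted p = 0.9999 for each), and 0% of all genes passed in either direction. Whether the first 3 differ from the other 3 was not tested. In pooled captures, fewer cells of a type and less RNA per cell cannot be told apart.

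**Figure D1:**
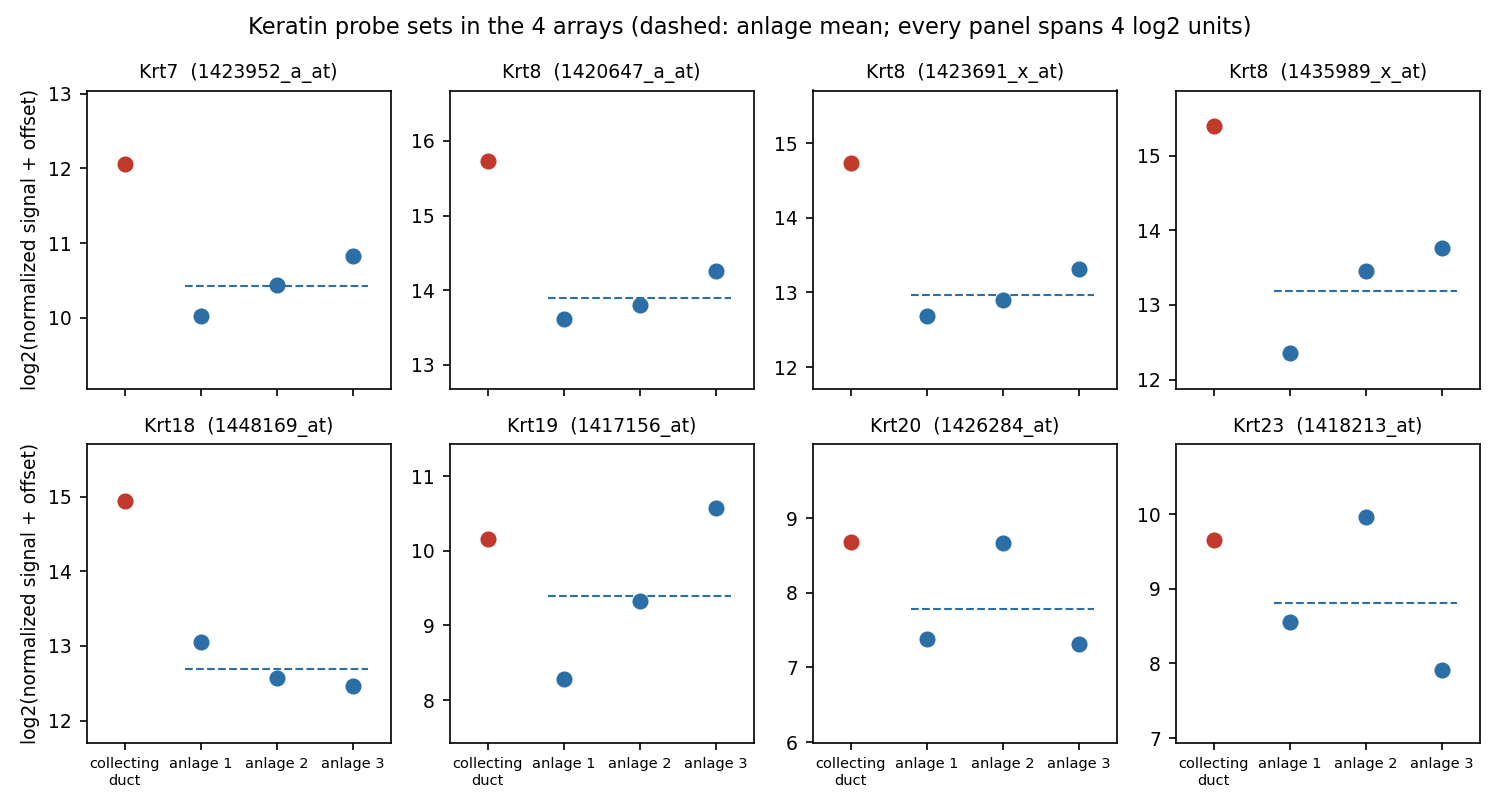
Each panel shows 1 keratin probe set as log2(normalized signal + offset) in the collecting duct array (red, left) and the 3 anlage arrays (blue), with the anlage mean dashed. The collecting duct array lies above all 3 anlage arrays in the panels of Krt7, Krt8 and Krt18, barely above anlage array 2 for Krt20 (8.674 and 8.672), and below 1 anlage array for Krt19 and for Krt23.

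Among the type II genes, Krt8, the common partner of the type I chains in simple epithelia, read brightly in all arrays. Its signal as deposited was 54126 units in the collecting duct array, against 10756, 16404 and 20467 units in anlage arrays 1, 2 and 3. After normalization its log2 value was 15.73 in the collecting duct, against 13.89 ± 0.33 in the anlage (SD, n = 3). The groups do not overlap, and anlage array 1 was the lowest. The 95% interval of the difference, not adjusted for the number of genes, ran from 0.80 to 2.87, and limma's unadjusted p was 0.00476.

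The 3 probe sets of Krt8 agreed in direction. The probe set 1420647_a_at, the brightest and so the one that stands for the gene, differed by 1.84, 1423691_x_at by 1.77 and 1435989_x_at by 2.20. In each of them anlage array 3 was the highest of the anlage arrays and still lay more than 1 log2 unit below the collecting duct array. The ending x marks probe sets of which some probes also match other transcripts. For these probe sets, signal from keratin relatives or Krt8 pseudogenes cannot be told apart from Krt8.

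Krt7, the type II keratin of ducts and glands, followed Krt8 closely at a lower signal. Its signal as deposited was 4232 units in the collecting duct array, against 1164, 1019 and 1648 units in the anlage arrays. On the log2 scale it stood at 12.06 in the collecting duct, against 10.43 ± 0.40 in the anlage (SD, n = 3). Again the groups do not overlap, and anlage array 1 was the lowest after normalization. The interval of the difference ran from 0.24 to 3.03, and limma's unadjusted p was 0.0287.

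Among the type I genes, Krt18, the partner of Krt8, had the widest gap of the 6. Its signal as deposited was 29602 units in the collecting duct array, against 7508, 6557 and 5495 units in the anlage arrays. Its log2 value was 14.95 in the collecting duct, against 12.70 ± 0.32 in the anlage (SD, n = 3). The anlage arrays lay close together, with array 1 the highest, which is the reverse of Krt8 and Krt7. The interval of the difference ran from 1.09 to 3.41, and limma's unadjusted p was 0.00319.

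Krt19, a type I chain that largely lacks the tail domain of other keratins, overlapped between the structures. Its signal as deposited was 1123 units in the collecting duct array, against 294.6, 324.7 and 1352 units in the anlage arrays. The log2 values were 10.15 in the collecting duct and 8.28, 9.33 and 10.58 in anlage arrays 1, 2 and 3, so array 3 was the highest of all 4. The difference of 0.76 ± 0.91 (SE) had an interval from -1.47 to 2.98, which holds both no change and a gap as wide as that of Krt18. Without anlage array 3 the difference was 1.35 and the collecting duct array lay above both remaining arrays, and without anlage array 1 it was 0.22. Array 3 is also the array rich in smooth muscle markers. Its sum over the urothelial list was the highest too, at 5708, against 2278 and 2317 in anlage arrays 1 and 2 and 3283 in the collecting duct. The part of either in the Krt19 value was not tested.

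Krt20, a type I keratin best known from intestinal and bladder surface cells, read dimly. Its signal as deposited was 319.3 units in the collecting duct array, against 85.9, 163.1 and 50.4 units in the anlage arrays. After normalization its log2 value was 8.674 in the collecting duct and 8.672 in anlage array 2, so the collecting duct array lay above by a margin far smaller than the spread of the anlage arrays, while anlage arrays 1 and 3 stood at 7.38 and 7.31. Its mean lay under 8.416, the limit for testing a gene, so it was not tested and its difference of 0.89 depends on the offset. That difference was 1.46 with an offset of 16, 0.44 with an offset at the median signal and 1.32 without anlage array 2.

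Krt23, a type I keratin whose role is less well known, had the same pattern among the anlage arrays as its neighbour Krt20, with array 2 the highest. Its signal as deposited was 774.5 units in the collecting duct array, against 385.6, 626.0 and 131.7 units in the anlage arrays. Normalization moved array 2, the array with the lowest median signal, above the collecting duct array, at 9.66 in the collecting duct and 8.55, 9.96 and 7.92 in anlage arrays 1, 2 and 3. The difference was 0.85 ± 0.85 (SE), with an interval from -1.22 to 2.92. It was 1.38 without anlage array 2, where the groups did not overlap, and 0.41 without anlage array 3. Array 2 had the highest Gapdh ratio, whose part in the values of Krt20 and Krt23 was not tested.

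**Figure D2:**
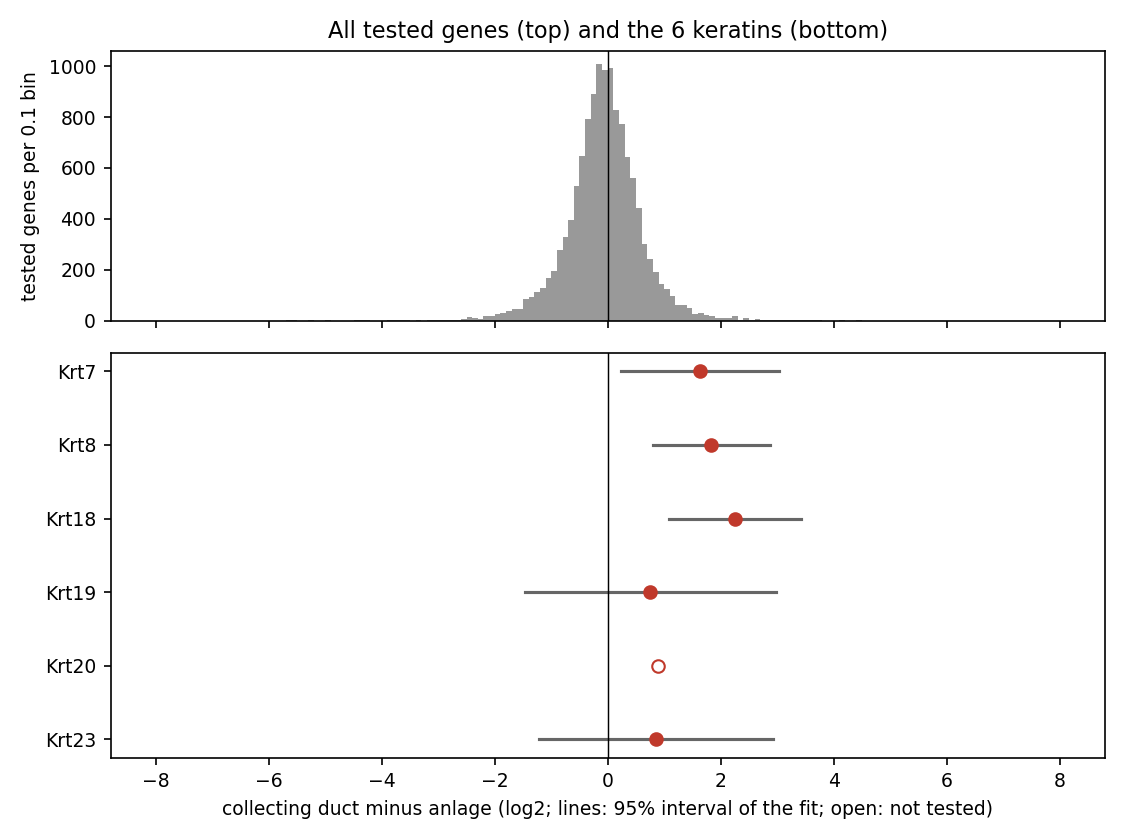
The top panel counts all 12642 tested genes by their difference, collecting duct minus anlage, in log2 units, and the bottom panel gives the 6 keratins with the 95% interval of the limma fit. The intervals of Krt7, Krt8 and Krt18 lie above 0, those of Krt19 and Krt23 span 0, and Krt20 (open) was not tested.

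Of the 5 tested members, 3 lay above all 3 anlage arrays and 0 lay below them, where 17.3% of all tested genes lay above and 24.3% below. With the untested Krt20, whose margin over anlage array 2 is that small, the count is 4 of 6, against 18.2% of all genes when dim ones are kept. At an unadjusted p under 0.05 limma had the same 3 members higher and 0 lower, beside 1.18% of all tested genes higher and 2.23% lower. That count of 3 became 0 with arrays brought to a common median, 4 without anlage array 2 (Krt23 joining) and 2 without anlage array 3 (without Krt7). The median difference over the 5 members was 1.63, and over all tested genes it was -0.06. In the order of all tested genes from the highest difference down, Krt18 stood at place 53, Krt8 at 110, Krt7 at 158, Krt23 at 817 and Krt19 at 1015. The direction of all 6 was upward under every one of the settings tried, as the plot of settings shows.

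**Figure D3:**
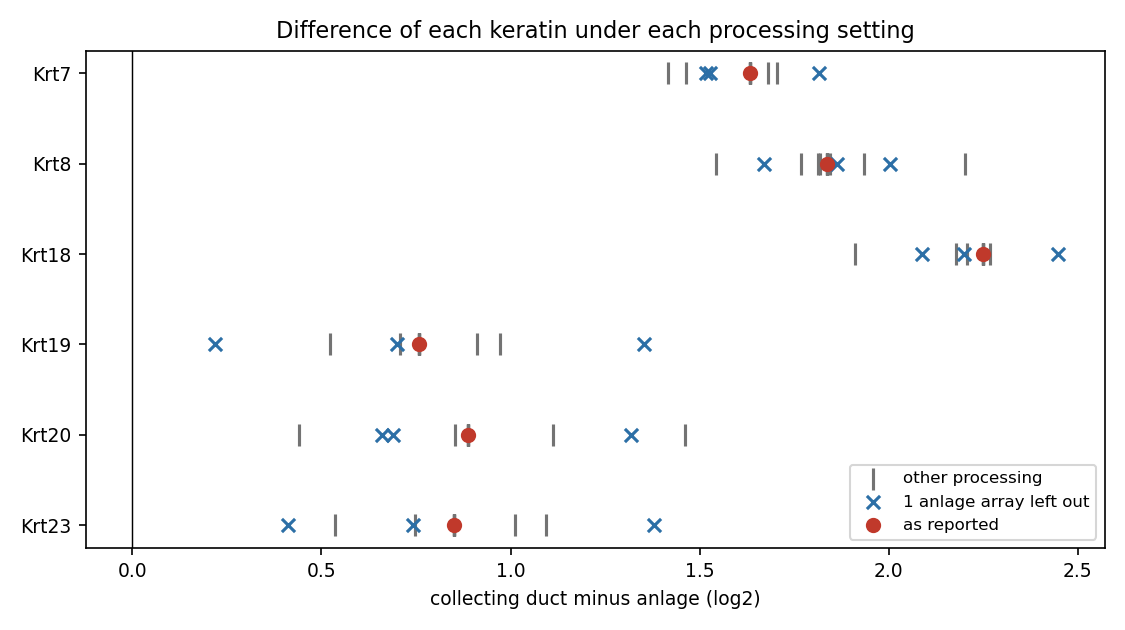
Difference, collecting duct minus anlage in log2 units, of each keratin as reported (red), with 1 anlage array left out (blue crosses) and under the other processing settings (grey bars). All marks lie above 0. Those of Krt7, Krt8 and Krt18 lie between 1.42 and 2.45, and those of Krt19, Krt20 and Krt23 spread between 0.22 and 1.46.

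Because filaments need both chain types, the members were also set against each other within each array. The log2 ratio of Krt8 to Krt18 was 0.78 for the collecting duct, against 0.57, 1.23 and 1.79 for anlage arrays 1, 2 and 3. Only the change of such a ratio between arrays can be read, since the probe sets differ in brightness. The collecting duct ratio lay inside the anlage range, so no change in the balance of the pair was seen beyond the anlage spread. For Krt8 and the other ductal type I chain, Krt19, the ratio was 5.58 for the collecting duct, against 5.34, 4.47 and 3.68 for the anlage arrays, all of which it lay above. The ratio of Krt7 to Krt8, both type II, was -3.67 for the collecting duct, against -3.60, -3.37 and -3.42 for the anlage arrays, all of which it lay below. The orders of Krt8 to Krt19 and of Krt7 to Krt8 depend on the offset added before taking log2. Without it, the normalized signals of Krt8, Krt7 and Krt19 were 54261, 4168 and 1029 in the collecting duct array. In anlage array 1 they were 12499.7, 933.6 and 201.5. On these signals the collecting duct array lay below anlage array 1 for Krt8 to Krt19, and above it for Krt7 to Krt8. These ratios were not tested.

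Profiles over the 4 arrays, each centred on its own mean, were compared by their root mean square distance in log2 units. Krt7 and Krt8 were 0.12 apart, and among 12641 other genes Krt8 was the second nearest to Krt7. This holds for the Krt8 probe set 1420647_a_at, and the others were not compared in this way. Among them 1435989_x_at was more spread over the anlage arrays, at 12.35, 13.46 and 13.76, with 15.39 in the collecting duct. Krt18 was 0.47 from Krt8, at rank 192 among the genes near Krt8, and 0.57 from Krt7. Krt19 and Krt23 were 1.28 apart. These distances rest on 4 arrays that share their normalization, and 10 to 27 genes lay within 0.25 of each tested member.

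By the same measure the genes nearest to Krt8 were Caln1, Ikzf2 and Gm8273, at 0.059, 0.084 and 0.098. Those nearest to Krt18 were Mpped2, L1cam and Slc35f1, at 0.058, 0.11 and 0.16. L1cam, a cell adhesion molecule, stood at 13.48 in the collecting duct and 11.89, 11.27 and 11.23 in the anlage arrays. Those nearest to Krt7 were Chka, a choline kinase, Krt8, and Atp8b1, a lipid flippase, at 0.11, 0.12 and 0.12. For Krt19 they were Atf7ip2, Ogn and H1f2, at 0.11, 0.13 and 0.14, and for Krt23 they were Lat, 2610027K06Rik and Cr2, at 0.074, 0.11 and 0.13. Other probe sets of Slc35f1 and Atf7ip2 had differences of the opposite sign, -0.10 and -0.09. Those of Caln1 and Mpped2 differed by as little as 0.21 and 0.64, against 1.88 and 2.27 for the probe sets used. Larger differences, of up to 2.34, 2.72 and 2.13, were found in other probe sets of Chka, Ikzf2 and Ogn.

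The other keratins, which serve mainly skin, hair and stratified epithelia, lay near 0. Of 42 on the array 34 were too dim to test, among them Krt14, Krt15 and Krt17. Of the 8 tested, 0 lay above and 0 below all 3 anlage arrays, and their median difference was 0.13. Krt5, the type II keratin of basal cells, stood at 8.62 in the collecting duct and 7.92, 9.15 and 8.35 in the anlage arrays. The differences furthest from 0 were 0.46 ± 0.64 for Krt80, 0.27 ± 0.57 for Krt81, 0.18 ± 0.74 for Krt10 and -0.16 ± 0.52 for Krt77 (SE), and that of Krt10 changed sign under some settings. None passed limma's test over all genes, and 0 had an unadjusted p under 0.05. With dim genes kept, 6 of the 42 (14.3%) lay above all 3 anlage arrays and 11 (26.2%) below, where 18.2% and 25.2% of all 18193 genes did.

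Genes that anchor keratin filaments were mixed in direction. Of 26 listed desmosome, hemidesmosome, plakin and keratin-binding genes 25 were on the array and 17 were tested, 8 of them higher and 9 lower in the collecting duct, and 0 passed. The median difference was 0.00, 6 lay above all 3 anlage arrays (35.3%) and 3 below (17.6%). Of all tested genes 17.3% lay above and 24.3% below. The 6 became 2 with arrays brought to a common median, and 3 on the deposited values. With dim genes kept, 9 of the 25 (36%) lay above and 4 (16%) below, where 18.2% and 25.2% of all genes did. The 8 genes too dim to test include Dsc2, a desmosomal cadherin, at 10.22 in the collecting duct and 7.38, 8.86 and 7.0 in the anlage arrays, a difference of 2.47 that depends on the offset. Its other probe set differed by 1.52. Desmoplakin (Dsp), which ties keratins to desmosomes, differed by 0.96 ± 0.49, and the desmosomal cadherin Dsg2 by 0.97 ± 0.78 (SE). Other probe sets of these genes differed by as little as -0.07 for Dsp and -0.79 for Dsg2. Dst, which encodes the plakin dystonin, differed by -0.86 ± 0.36, with another probe set at 1.51, and Itga6, the integrin chain of hemidesmosomes, by -1.82 ± 0.52 (SE). Itga6 stood at 12.55 in the collecting duct and 13.83, 14.41 and 14.86 in the anlage arrays, and both of its probe sets were lower. The integrin gene Itgb4 of the same list was too dim to test, at 7.46 in the collecting duct and 8.15, 7.27 and 7.02 in the anlage arrays. The Itga6 value alone therefore does not describe hemidesmosomes.

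Intermediate filament genes outside the keratins had no common direction. Of 9 tested, 3 had a higher and 6 a lower value, 1 lay above all anlage arrays and 1 below, and 0 passed. These shares of 11.1% each stand beside 17.3% and 24.3% of all tested genes. Vimentin (Vim), the filament protein of mesenchyme, stood at 13.64 in the collecting duct and 13.82, 13.69 and 14.59 in the anlage arrays. Nestin (Nes) differed by 0.97 ± 0.93 and lamin B1 (Lmnb1) by 0.61 ± 0.94 (SE), and the probe sets of each disagreed in sign. Lamin A (Lmna) differed by -0.76 ± 0.91, with another probe set at 0.31, and lamin B2 (Lmnb2) by 0.51 ± 0.58 (SE).

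Epithelial transcription factors were examined as a list of 19 genes, 17 of them tested. Of these 7 lay above all 3 anlage arrays (41.2%) and 1 below (5.88%), where 17.3% and 24.3% of all tested genes did. A higher value was found for 9, the median difference was 0.03, and 0 passed over all genes. Elf5 and Gata3 are also among the collecting duct markers, so the lists are not independent. Klf5, a zinc finger factor of simple epithelia, stood at 11.87 in the collecting duct and 9.86, 9.01 and 9.99 in the anlage arrays, a difference of 2.25 ± 0.62 (SE). The ETS factors Elf5 and Ehf and the ureteric factor Gata3 differed by 4.11, 3.01 and 3.53, with SE of 0.90, 0.75 and 0.84. Other probe sets differed by as little as 1.78 for Elf5, 0.12 for Ehf and 1.06 for Klf5, and Gata3 has 1. The member below all 3 anlage arrays was Tfap2c, an AP-2 factor, at 7.01 in the collecting duct and 8.48, 9.88 and 9.31 in the anlage arrays. Its other probe sets differed by -0.66 and 0.00. Trp63, the factor of basal and stratified epithelium, stood at 8.16 in the collecting duct and 7.93, 9.59 and 10.31 in the anlage arrays.

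**Figure D4:**
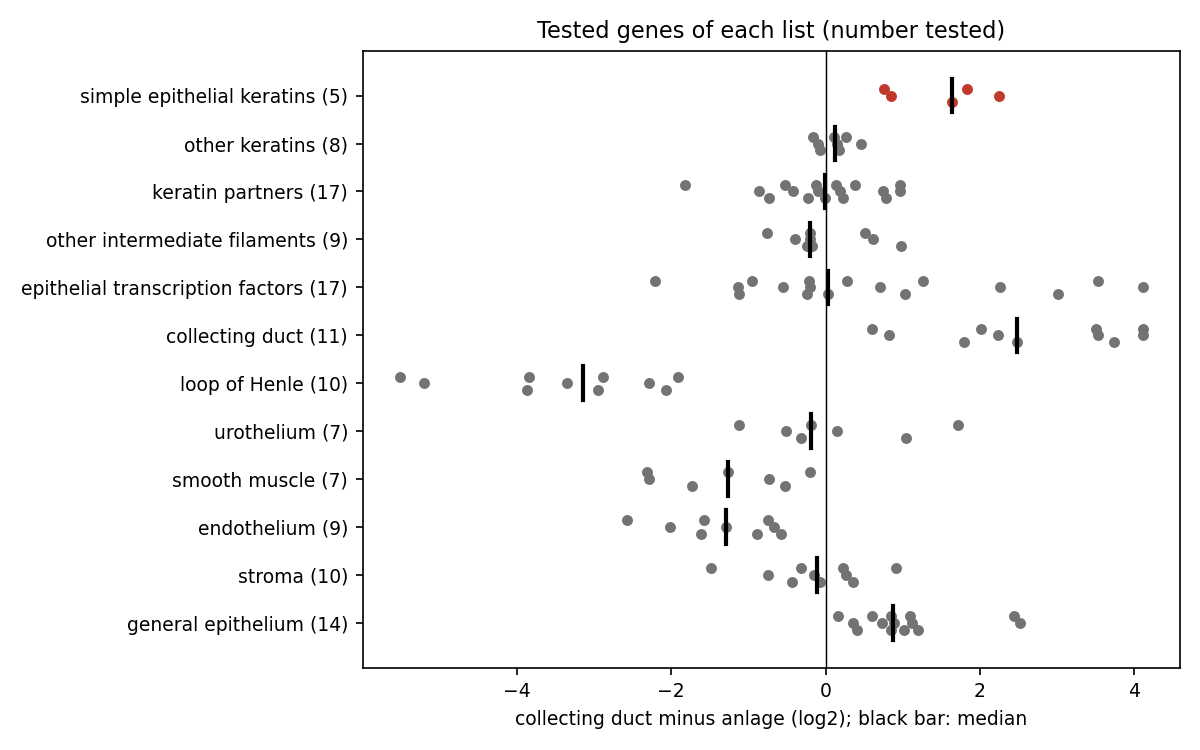
Differences, collecting duct minus anlage in log2 units, of the tested genes of each list (dots) with the list median (black bar); the simple epithelial keratins are red. The keratin median of 1.63 lies between that of the general epithelial genes, 0.87, and that of the collecting duct markers, 2.48, while the other keratins lie near 0.

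General epithelial markers also read higher in the collecting duct array. All 14 were tested and read higher in the collecting duct, with a median difference of 0.87, and 0 passed. Above all 3 anlage arrays lay 13 of them (92.9%), where 17.3% of all tested genes did. Their normalized signal summed to 188473 in the collecting duct array and to 118251, 120004 and 113872 in the anlage arrays. The same sum over the 6 keratins came to 91910 in the collecting duct, against 22353, 23162 and 28280 in the anlage arrays. Krt8 and Krt18 gave most of it, at 54261 and 31454 in the collecting duct array. Krt19, Krt20 and Krt23 gave 1029, 299 and 699 there, so the sum says little about them. Of the 14 genes, 2 had a larger difference than Krt18, Krt8 and Krt7, namely the tight junction gene Cldn3 (2.51 ± 0.55, SE) and Mal2 (2.44 ± 0.94), a membrane traffic protein. The adhesion genes Cdh1 and Epcam differed by 0.36 ± 0.48 and 0.40 ± 0.37 (SE). The part of epithelial content in the keratin values was not tested.

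Markers of other cells near the captured structures had mostly lower or overlapping values in the collecting duct array. The endothelial list summed to 5784 in the collecting duct array and to 9597, 17653 and 20379 in the anlage arrays, with 9 of 9 tested genes at a lower value and 6 below all 3 anlage arrays. For smooth muscle 7 of 7 tested genes had a value lower than the anlage mean, and 4 lay below all 3. Of all tested genes 24.3% lay below all 3 anlage arrays. Without anlage array 3, 1 smooth muscle gene lay above both remaining arrays, where 22.8% of all tested genes did. The stromal list, summing to 180731 for the collecting duct and to 158828, 146602 and 340388 in the anlage arrays, had 4 of 10 genes higher. Of these 10 genes 0 lay above all 3 anlage arrays. Without anlage array 3, 4 stromal genes lay above both remaining arrays, beside the same 22.8% of all tested genes, so the stromal overlap rests largely on that array. The urothelial list holds the basal cell genes Krt5 and Trp63 beside the uroplakins, so it does not mark surface cells alone. Krt7 and Krt20 are also made in urothelium. The list summed to 3283 in the collecting duct array and to 2278, 2317 and 5708 in the anlage arrays. Of its 7 tested genes 3 had a higher value, while Upk1a and Pparg were too dim to test. The uroplakin Upk3b, 1 of the 7 (14.3%), lay above all 3 anlage arrays, where 17.3% of all tested genes did.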

How the data were processed

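Laser-captured cortical collecting duct (1 array) and loop of Henle anlage (3 arrays) were profiled on oligonucleotide arrays. The deposited values are linear intensity values per probe set. GCOS produced them, per the submitters' processing notes, in a version not given in the sources used here. The mean after trimming 2% at each end was 1500 in every array. For arrays, their number limits the precision.

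After quantile normalization, 109.6 (the 25th percentile) was added before taking log2, so folds of dim genes are understated. The 64 control probe sets were then left out. Probe sets with several symbols (932) or none (9160) in the platform table were not used, and the brightest probe set stood for a gene. Genes with a mean under 8.416, the 40th percentile of probe sets, were not tested. limma 3.58.1 in R 4.3.3 (lmFit, eBayes with trend, two-sided, Benjamini-Hochberg over 12642 genes, threshold 0.05) had 2 residual degrees of freedom, which come from the anlage arrays, and assumed that the lone collecting duct array varies like them. An exact permutation test of 1 against 3 cannot go below p = 0.25, so none was run. The fit was tested on simulated data in which the lone array varied like the anlage arrays, so that assumption was not tested.

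The 6 members and all lists were chosen with earlier results of these data known. Named are the members and their probe sets, up to 4 tested genes per other list by absolute difference, and the 3 genes nearest in profile to each tested member. Krt5, Krt14, Krt15, Krt17, Dsc2, Itgb4, Vim, Tfap2c, Trp63, Cdh1, Epcam, Upk1a and Pparg were named after their values were seen.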

Additional observations from a re-analysis of the deposited data

How the results depend on the processing

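The direction of all 6 keratin differences held under each of the 13 alternatives (offset, normalization, probe set choice, filter on dim genes, variance model and leaving out each anlage array), and 0 members passed over all genes under any of them. With each anlage array left out in turn the difference ranged from 1.67 to 2.00 for Krt8, from 2.09 to 2.45 for Krt18, from 1.52 to 1.82 for Krt7, from 0.22 to 1.35 for Krt19, from 0.66 to 1.32 for Krt20 and from 0.41 to 1.38 for Krt23. Scaling to a common median gave Krt8 1.54, Krt18 1.91 and Krt7 1.42, while the median of all genes moved to -0.24 from -0.06. The lowest adjusted p was 0.295 for Krt18, 0.301 for Krt8 and 0.386 for Krt7, each without anlage array 1, where limma had 1401 genes at an unadjusted p under 0.05. The number of genes called over all genes, 0 as reported, ranged from 0 to 14 with an array left out. The 14, 3 higher and 11 lower and none of them a keratin member, came without anlage array 2, with 1 residual degree of freedom, and the cause was not tested. The count of keratins above all anlage arrays, which includes the untested Krt20, was 4, and 5 on the deposited values and without anlage array 2 or 3. For the 11 other lists the count was taken over tested genes only, and it moved by over 1.5 times in 17 of 143 cases. No paired analysis was possible because the groups compared share only replicate number 3. The collecting duct has 1 array, so its own spread is unknown.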
